A study of Mus musculus with 20 samples.

Results

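The 4 adult hemoglobin genes Hba-a1, Hba-a2, Hbb-bs and Hbb-bt and the erythroid heme synthesis gene Alas2 were followed through 20 RNA-seq libraries of mouse hippocampus. They were taken by gene symbol and are 5 of the 13256 genes listed for every library, and all 5 reached 0.5 FPKM in all 20 libraries. FPKM scales the fragments of a gene to transcript length and to all mapped fragments of a library. The libraries form 4 groups of 5: male KO, male WT, female KO and female WT. KO animals carry an Fmr1 mutation that the titles call a knockout and the genotype field calls a knockdown, while the WT animals are C57 mice without it. All 20 titles carry the word Con, whose meaning the labels do not give. The labels also give no age, do not say whether a library is 1 animal or a pool, and do not say whether the brains were flushed of blood. Since separate animals are not stated, the spread behind each p-value is that between these samples and may be technical.

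Hemoglobin is a tetramer of alpha and beta globin chains, each holding a heme group that binds oxygen. Hba-a1 and Hba-a2 are neighbouring copies that encode the alpha chain, and Hbb-bs and Hbb-bt are neighbouring genes that encode the beta chains of the single (s) haplotype found in C57 mice. Alas2 encodes the erythroid form of 5-aminolevulinate synthase, the first and rate-limiting step of heme synthesis, while Alas1 encodes the form of other tissues. Globin mRNA is carried in blood by reticulocytes, red cells that have lost the nucleus but not yet all RNA, and low levels have been described in some neurons and glia. In bulk tissue, fewer cells of a type and less RNA per cell cannot be told apart.

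The alpha genes lie together on chromosome 11 and the beta genes on chromosome 7, and Alas2 is on the X chromosome. In the deposited mm10 coordinates, Hba-a1 (ENSMUSG00000069919.7) is at chr11:32283511-32284465 and Hba-a2 (ENSMUSG00000069917.7) at chr11:32296489-32297298, both on the plus strand. Hbb-bs (ENSMUSG00000052305.6) is at chr7:103826534-103828096 and Hbb-bt (ENSMUSG00000073940.3) at chr7:103812524-103813996, both on the minus strand. Alas2 (ENSMUSG00000025270.13) is at chrX:150547375-150570638 on the plus strand. All 5 are annotated as protein-coding genes.

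The 250 bases before the RefSeq start of 4 of the genes (build GRCm38.p6) are shown because the 5 genes varied together between libraries. Whether the promoters have a part in that was not tested. Each sequence is written 5′ to 3′ on the strand of its gene. Capitals mark every match on either strand to 4 short motifs, and no matches overlap. GATAA is the core sequence bound by GATA transcription factors. CACCC is bound by Krüppel-like factors, among them the erythroid factor KLF1. CCAAT is a box found in many promoters. The last motif, ATATAA, is a form of the box near the start of many tissue-specific genes. The windows are chr11:32296242-32296491 (plus) for Hba-a2, chr7:103827929-103828178 (minus) for Hbb-bs, chr7:103813924-103814173 (minus) for Hbb-bt and chrX:150547167-150547416 (plus) for Alas2.
Hba-a2: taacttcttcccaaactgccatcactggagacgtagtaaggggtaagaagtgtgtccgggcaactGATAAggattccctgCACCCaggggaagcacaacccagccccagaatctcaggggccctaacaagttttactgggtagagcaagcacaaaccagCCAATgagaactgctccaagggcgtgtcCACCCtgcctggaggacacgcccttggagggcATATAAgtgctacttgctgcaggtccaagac
Hbb-bs: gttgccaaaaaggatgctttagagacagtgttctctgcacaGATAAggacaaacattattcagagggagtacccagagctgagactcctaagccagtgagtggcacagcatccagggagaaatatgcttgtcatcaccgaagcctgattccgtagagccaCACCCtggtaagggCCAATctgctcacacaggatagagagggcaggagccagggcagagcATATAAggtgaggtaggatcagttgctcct
Hbb-bt: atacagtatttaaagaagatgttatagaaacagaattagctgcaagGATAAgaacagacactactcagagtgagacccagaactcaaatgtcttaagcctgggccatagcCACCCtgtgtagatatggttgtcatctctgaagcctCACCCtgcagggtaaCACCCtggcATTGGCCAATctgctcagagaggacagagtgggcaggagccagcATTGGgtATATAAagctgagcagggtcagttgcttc
Alas2: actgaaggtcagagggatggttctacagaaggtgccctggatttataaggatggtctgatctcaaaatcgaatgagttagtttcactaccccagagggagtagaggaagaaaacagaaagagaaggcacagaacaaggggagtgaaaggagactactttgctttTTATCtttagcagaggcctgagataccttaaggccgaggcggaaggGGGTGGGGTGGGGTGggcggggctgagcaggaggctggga

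All 5 windows held GATAA and CACCC, which were in 22.6% and 52.0% of 32851 RefSeq promoter windows of the same length. The 4 globin windows also held CCAAT and ATATAA, in 33.8% and 9.1% of all windows, and both stood together with CACCC in 1.36%. In the globin windows ATATAA began 28 to 31 bases before the start. The Alas2 window held neither CCAAT nor ATATAA, and its GATAA and 3 CACCC matches were all on the opposite strand. The alpha copies have nearly the same promoter: the Hba-a1 window matched that of Hba-a2 at 247 of 253 aligned positions, and Hbb-bs and Hbb-bt were 70.9% identical. The windows end at the RefSeq start, and the deposited gene models of the 4 printed genes begin inside them. The window length and motifs were chosen after the sequences were seen, so these shares cannot show that the matches are unusual. A match is a run of letters and shows no binding.

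The transcripts of the copies also share sequence, which limits how well their FPKM can be told apart. Of all 100-base windows of the Hba-a2 transcript, 74.5% were found unchanged in Hba-a1, and 56.5% of those of Hba-a1 were found in Hba-a2. For the beta genes, 54.0% of Hbb-bs windows were found in Hbb-bt and 54.8% of Hbb-bt windows in Hbb-bs. How reads from shared stretches were divided is not given in the sources used here, so the split within each pair is uncertain. The longest transcripts differ in length, at 699 and 554 bases for Hba-a1 and Hba-a2 and 628 and 703 bases for Hbb-bs and Hbb-bt. FPKM divides by length, so the sum of a pair and the ratio of beta to alpha also depend in part on that split.

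Neuronal genes and the genotype labels were checked in the same tables, and the sex labels were not. All 13 genes of the hippocampal neuron list were present, with a summed level of 1217 to 1287 FPKM in every library. Much of that sum came from genes of neurons in general, such as Snap25 (group means of 307 to 313 FPKM) and Camk2a (294 to 310 FPKM). The sum thus shows neuronal tissue and does not test that it is hippocampus. Fmr1, the mutated gene, was 3.31 to 3.72 FPKM in male KO and 10.5 to 11.8 FPKM in male WT libraries, and 2.90 to 3.66 FPKM in female KO and 9.85 to 11.3 FPKM in female WT libraries. Some libraries stood apart in transcripts of neighbouring tissue. Ttr, which encodes transthyretin of the choroid plexus, was above 500 FPKM in male KO replicate 2, female KO replicates 4 and 5 and female WT replicate 4. Prl, which encodes prolactin of the pituitary, was above 4 FPKM in female KO replicates 2, 3 and 4. The depth of the libraries is unknown because no counts are given.

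Both alpha globin genes were readily measured in every library, with the highest values among female KO libraries. Hba-a1 was 111, 112, 152, 107 and 96.7 FPKM in male KO replicates 1 to 5, against 115, 85.3, 115, 95.8 and 121 FPKM in male WT. In females it was 164, 139, 182, 167 and 116 FPKM in KO, against 82.8, 132, 152, 92.0 and 86.6 FPKM in WT. Female KO replicate 3 was the highest library and female WT replicate 1 the lowest, and 3 of 5 female KO libraries lay above every female WT library. Hba-a2 was 109, 111, 156, 101 and 84.5 FPKM in male KO, against 109, 78.9, 120.3, 87.4 and 117 FPKM in male WT. It was 158, 129, 171, 149 and 110.3 FPKM in female KO, against 80.1, 127, 150.2, 90.5 and 78.8 FPKM in female WT. The male groups overlapped for both genes, with male KO replicate 3 above every male WT library. In females all 5 KO libraries were above the WT median, and the lowest KO library was within the WT range.

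The beta globin genes had a similar, though not identical, order of libraries. Hbb-bs, the more abundant beta gene, was 156, 169, 212, 142 and 127 FPKM in male KO, against 162, 119, 155, 133 and 165 FPKM in male WT. It was 229, 192, 246, 247 and 157 FPKM in female KO, against 113, 193, 195, 145 and 129 FPKM in female WT. Female KO replicates 1, 3 and 4 were above all other libraries for Hbb-bs, and replicate 5 was within the female WT range. Hbb-bt was 52.1, 55.3, 64.2, 43.3 and 34.2 FPKM in male KO, against 45.4, 33.8, 51.6, 39.4 and 51.2 FPKM in male WT. It was 67.9, 57.4, 72.2, 74.4 and 46.6 FPKM in female KO, against 33.6, 59.1, 61.9, 43.8 and 41.8 FPKM in female WT. For Hbb-bt too, 3 of 5 female KO libraries were above every female WT library, and the groups overlapped.

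Alas2 was far lower than the globin genes. It was 1.61, 1.58, 1.64, 1.59 and 1.20 FPKM in male KO, against 1.52, 0.919, 1.92, 1.07 and 1.66 FPKM in male WT. In females it was 1.73, 1.16, 2.24, 2.22 and 1.60 FPKM in KO, against 0.778, 1.37, 2.45, 0.974 and 1.36 FPKM in WT. The highest Alas2 library was female WT replicate 3 and the lowest was female WT replicate 1, so that 1 group held both ends of the range. No female KO library was above the female WT range.

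**Figure D1:**
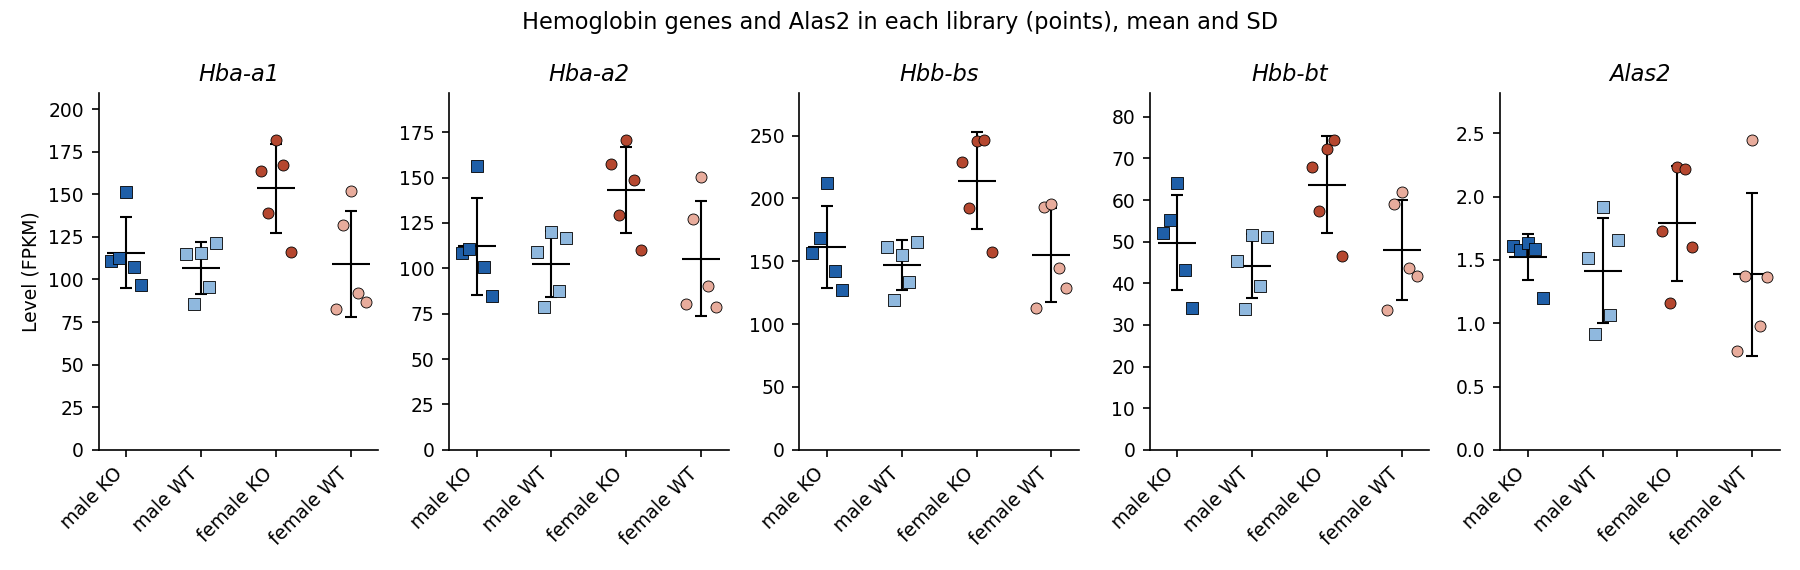
Level in FPKM (vertical axes, each from 0) of the 4 globin genes and Alas2 in each library (points) of the 4 groups, with the mean (long bar) and SD (error bar, n = 5). Female KO libraries reach the highest globin levels, up to 247 FPKM for Hbb-bs, and their ranges overlap those of female WT libraries for every gene.

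Group means had the same order for the 4 globin genes: female KO was highest, then male KO, female WT and male WT. The sum of the 4 globin genes averaged 439 ± 90.5 FPKM in male KO, 400.1 ± 60.2 in male WT, 575 ± 98.8 in female KO and 418 ± 111 in female WT (SD, n = 5 each). Male KO, female WT and male WT lay within 1 SD of each other. These sums were 0.186% ± 0.0362 of all FPKM in male KO, 0.170% ± 0.0260 in male WT, 0.239% ± 0.0424 in female KO and 0.176% ± 0.0464 in female WT. Over single libraries the globin share ran from 0.130% in female WT replicate 1 to 0.278% in female KO replicate 3. Mean Alas2 was 1.52 ± 0.184 FPKM in male KO, 1.42 ± 0.414 in male WT, 1.79 ± 0.455 in female KO and 1.39 ± 0.646 in female WT, and neighbours in that order of means differed by less than the larger of their SDs.

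Blood transcripts varied more between libraries than most genes. The ratio of highest to lowest library was 2.20 for Hba-a1, 2.17 for Hba-a2, 2.18 for Hbb-bs, 2.22 for Hbb-bt and 3.15 for Alas2. Their coefficients of variation over 20 libraries were 24.0% to 24.9% for the globin genes and 29.3% for Alas2. On the log2(FPKM + 1) scale the SD was 0.34 to 0.36 for the globin genes and 0.26 for Alas2, against a median of 0.12 over the 13174 genes tested. The SD of Hbb-bs was higher than that of 96.5% of the 200 genes nearest to it in level, and that of Alas2 higher than 89.0% of its 200. Differences between group means made up 41.2% of the spread of Hba-a1, 32.0% of Hba-a2, 40.9% of Hbb-bs, 32.6% of Hbb-bt and 14.3% of Alas2. Most of the spread thus lay between libraries of the same group. Means of small groups differ somewhat even without a group effect, so these shares are not a measure of such an effect.

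The proportions of the globin transcripts moved far less than their levels. The ratio of beta to alpha globin FPKM was 0.934 ± 0.0528 over 20 libraries and ran from 0.852 to 1.03, a coefficient of variation of 5.65%. It was 0.926 ± 0.0502 in male KO, 0.917 ± 0.0258 in male WT, 0.935 ± 0.0474 in female KO and 0.959 ± 0.0811 in female WT. The ratio of Hbb-bs to Hbb-bt was 3.30 ± 0.184 over all libraries, with 3.27 ± 0.281 in male KO, 3.34 ± 0.232 in male WT, 3.36 ± 0.0355 in female KO and 3.24 ± 0.117 in female WT. The means of either ratio differed between groups by less than the largest SD within a group. Hba-a1 and Hba-a2 were nearly equal, at a ratio of 1.05 ± 0.0467. The splits within the alpha pair and within the beta pair both rest in part on shared sequence, so the steadiness of either may reflect how reads were divided. Alas2 was 0.905% ± 0.184 of Hbb-bs and ranged from 0.602% in female KO replicate 2 to 1.25% in female WT replicate 3.

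The 5 genes varied together from library to library. All 10 pairs were correlated across the 20 libraries on the log2(FPKM + 1) scale, with Pearson r of 0.943 to 0.984 among globin genes and 0.740 to 0.789 between Alas2 and a globin gene. The adjusted p over the 10 pairs was 0.0002 or lower in two-sided permutation tests (100000 resamples, which cannot give less than 1e-05). Within the alpha pair (r = 0.984) and the beta pair (r = 0.975), part of the correlation may come from how shared reads were divided. The alpha gene Hba-a1 and the beta gene Hbb-bs lie on different chromosomes, and had r = 0.978 and rho = 0.956 (permutation p = 1e-05 for both), with r = 0.970 without the 2 libraries farthest from the median. Alas2 and Hbb-bs had r = 0.740 (permutation p = 0.0002) and rho = 0.740 (permutation p = 0.0003), with r = 0.637 without the 2 farthest libraries. With each group's mean subtracted, r over the 10 pairs was 0.720 to 0.983, so the relation was also present within groups.

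The same relation was seen in each sex and genotype. Hba-a1 and Hbb-bs had r = 0.973 in the 10 male and 0.979 in the 10 female libraries, and 0.985 in KO and 0.962 in WT libraries. Alas2 and Hbb-bs had r = 0.723 in male and 0.773 in female libraries, and 0.691 in KO and 0.784 in WT libraries. The same libraries were at the ends for most of the genes. Female WT replicate 1 was the lowest library for Hba-a1, Hbb-bs, Hbb-bt and Alas2, and male WT replicate 2 was the second lowest for all 5 genes. Female KO replicate 3 was the highest or the second highest library for all 5.

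**Figure D2:**
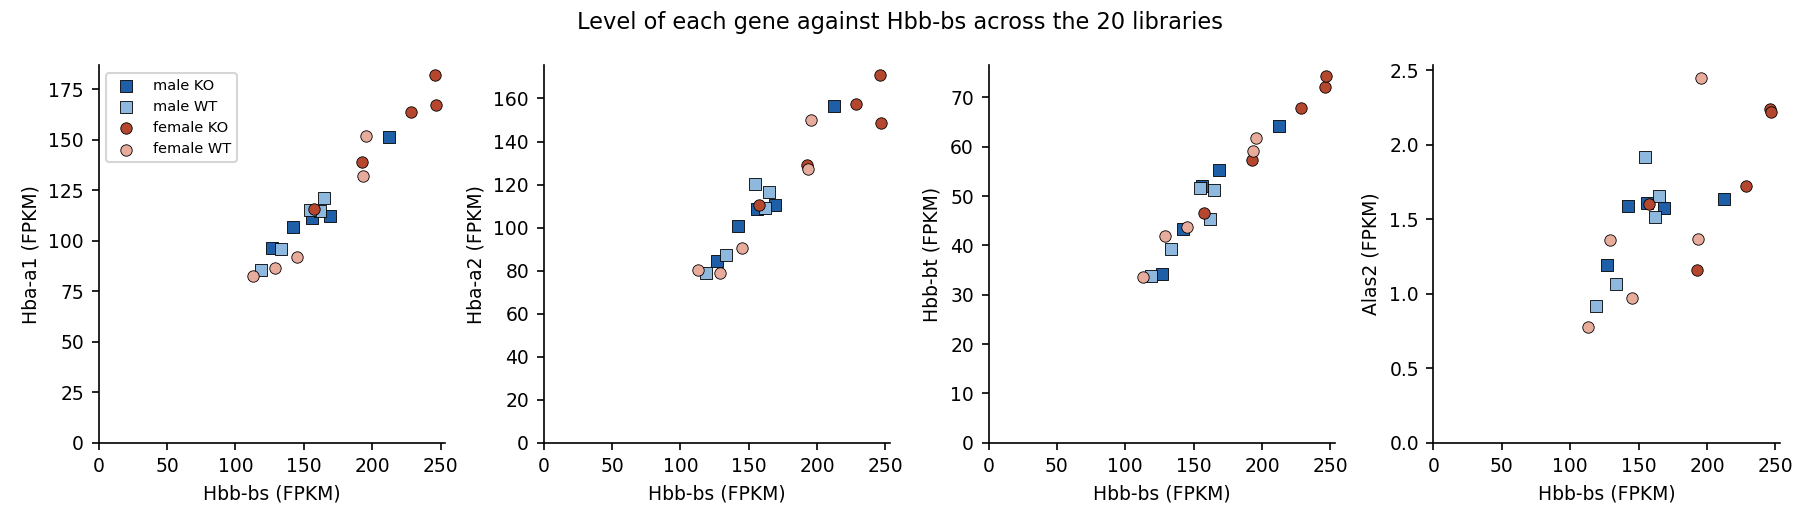
Level in FPKM of Hba-a1, Hba-a2, Hbb-bt and Alas2 (vertical axes) against Hbb-bs (horizontal axes), 1 point per library, coloured by group. The globin genes fall along a line through all 4 groups (r = 0.963 to 0.978 with Hbb-bs), and Alas2 scatters more widely (r = 0.740).

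No gene outside the 5 matched the globin genes as closely as they matched each other. Each globin gene had r of 0.960 to 0.972 with the mean z-score of the other 4 members, and of 13169 other genes none reached this, the nearest being Tmem267 at 0.777 to 0.781. That mean includes the gene's own copy, and reads from shared stretches may raise its r by construction. Pairs of an alpha and a beta gene, on different chromosomes, had r of 0.943 to 0.978. The highest r of any outside gene with a single globin gene was 0.800 to 0.804. Alas2 had r = 0.785 with the mean z-score of the 4 globin genes, and 1 other gene was higher, Tmem267 at 0.809. Against Hbb-bs alone, 7 other genes exceeded Alas2. The 10 genes with the highest r to the mean z-score of all 5 were Tmem267 (0.788), Igdcc3 (0.759), Sf3b4 (0.754), Eif4ebp2 (0.747), Prg4 (0.734), Tex261 (0.732), Tinagl1 (0.718), 8430408G22Rik (0.715), 1700017B05Rik (0.706) and Nfya (0.705). After subtracting group means the list was Igdcc3 (0.744), Aldoa (0.739), Tmem267 (0.734), Asic2 (0.723), Nt5c3b (0.723), Nmt1 (0.701), Fam131c (0.698), Arsb (0.681), Scube1 (0.681) and Gabrg1 (0.679), and only Tmem267 and Igdcc3 were in both. The Aldoa entry is a low transcript at a mean of 0.638 FPKM, not the main aldolase A row of the same symbol. These are the highest of 13169 values over 20 libraries, they share those libraries, and no p is given.

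Differences between the groups were tested with limma on log2(FPKM + 1) over all 13174 genes kept, with Benjamini-Hochberg adjustment over all of them and a threshold of 0.05. In females, KO libraries had more of all 5 transcripts on average, but none passed. The log2 difference of female KO minus female WT was 0.52 ± 0.17 (SE) for Hba-a1, a fold of 1.43 with a 95% interval of 1.12 to 1.82 and a limma adjusted p of 0.0904. For Hbb-bs it was 0.48 ± 0.16, a fold of 1.39 (1.10 to 1.77) with a limma adjusted p of 0.115. Hba-a2 and Hbb-bt had log2 differences of 0.47 and 0.42 (limma adjusted p = 0.168 and 0.214), and Alas2 had 0.25 (95% interval −0.07 to 0.57, limma adjusted p = 0.385). By limma, 0 of the 5 genes passed, where 3.32% of all tested genes did, and 4 of the 5 had an unadjusted p under 0.05, as did 2573 of the 13174. All 5 female KO libraries were above the female WT median for each globin gene, and 4 of 5 for Alas2. The median log2 difference of the 5 genes was 0.47, beside 0.01 over all tested genes. Because the globin genes vary nearly as 1 (r = 0.943 to 0.984), counts and medians over the 5 genes, here and below, are not separate pieces of evidence.

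Whether a gene passed in females depended on the libraries kept, but the sign of the difference did not change for any of the 5 genes. Without female WT replicate 3, the female WT library with the most Hba-a1, Hba-a1 passed (log2 difference 0.65, limma adjusted p = 0.0439). The female KO libraries with Prl above 4 FPKM, replicates 2, 3 and 4, included the 2 with the most Hbb-bs. Without those 3 libraries, which left female KO replicates 1 and 5, the difference was 0.38 for Hba-a1 and 0.32 for Hbb-bs (limma adjusted p = 0.54 and 0.603). Without the 4 libraries with Ttr above 500 FPKM the difference was 0.55 and 0.53 (limma adjusted p = 0.243 and 0.251), against 0.52 and 0.48 with all libraries.

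In males, KO and WT libraries were not told apart. The log2 differences of male KO minus male WT were 0.11 for Hba-a1, 0.12 for Hba-a2, 0.12 for Hbb-bs, 0.15 for Hbb-bt and 0.08 for Alas2, with limma adjusted p of 0.884 to 0.936. The 95% interval for Hbb-bs, −0.22 to 0.47, holds folds of 0.858 to 1.38. By limma, 0 of 5 passed and 0 had an unadjusted p under 0.05, where 0.0455% of all genes passed and 1145 had an unadjusted p under 0.05. The median of the 5 was 0.12, beside 0.00 over all tested genes. The test of the male KO effect minus the female KO effect gave −0.40 for Hba-a1, −0.35 for Hba-a2, −0.35 for Hbb-bs, −0.26 for Hbb-bt and −0.17 for Alas2 (limma adjusted p = 0.593 to 0.828). It passed for 0 of 5 genes, none with an unadjusted p under 0.05, against 0.0455% of all genes, so a difference between the sexes in the KO effect was not shown. Averaged over both sexes, the KO effect was 0.31, 0.30, 0.30 and 0.28 for Hba-a1, Hba-a2, Hbb-bs and Hbb-bt and 0.16 for Alas2 (limma adjusted p = 0.154 to 0.455). Here 0 of 5 passed, against 3.22% of all genes, and 4 had an unadjusted p under 0.05, as did 2373 of the 13174 genes.

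Male and female libraries of the same genotype were also compared. Among KO libraries, male minus female was −0.40 for Hba-a1, −0.36 for Hba-a2, −0.41 for Hbb-bs, −0.36 for Hbb-bt and −0.13 for Alas2, with limma adjusted p of 0.137 to 0.644. By limma, 0 of 5 passed, against 5.38% of all genes, and Hba-a1 and Hbb-bs had an unadjusted p under 0.05, as did 3070 of the 13174 genes. No male KO library exceeded the highest female KO library for any of the 5 genes. Among WT libraries the differences lay between −0.10 for Hbb-bt and 0.04 for Alas2 (limma adjusted p = 0.905 to 0.998). In WT 0 of 5 passed, and 0 had an unadjusted p under 0.05, against 0.129% of all genes past the threshold.

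**Figure D3:**
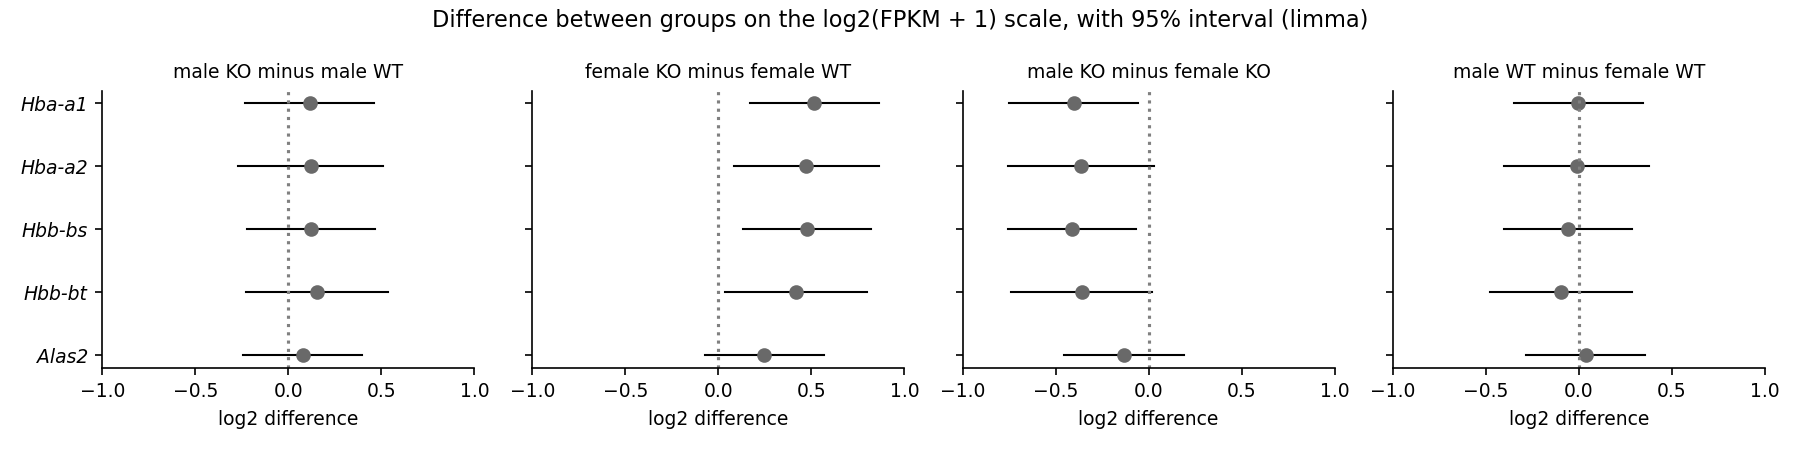
Log2 difference on the log2(FPKM + 1) scale (horizontal axes) with its 95% interval from limma for each gene (rows), in male KO minus male WT, female KO minus female WT, male KO minus female KO and male WT minus female WT. The female KO differences are 0.42 to 0.52 for the globin genes, with intervals above 0 before adjustment, and 0.25 for Alas2, with an interval across 0. The male KO differences are 0.11 to 0.15 for the globin genes and 0.08 for Alas2, all with intervals across 0.

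As with Alas2, none of the other heme synthesis genes passed for KO against WT. All 14 genes of the list, which holds Alas1, the later enzymes of the pathway and its mitochondrial carriers, were measured, and their summed level was 91.9 to 93.5 FPKM in male KO, 89.0 to 98.8 in male WT, 91.4 to 96.8 in female KO and 91.5 to 93.4 in female WT. By limma, 0 of 14 passed in females, against 3.32% of all genes, and 0 of 14 in males, against 0.0455%, so the count is near the background. The list had a median log2 difference of −0.01 in females and −0.02 in males. Alas1 was 5.71 ± 0.387 FPKM in male KO, 5.39 ± 0.435 in male WT, 5.63 ± 0.298 in female KO and 5.65 ± 0.248 in female WT. Fech, which inserts iron into heme at the end of the pathway, had a female KO difference of −0.01 (limma adjusted p = 0.928). Between male and female KO libraries, Slc25a38, a mitochondrial glycine carrier (−0.24, limma adjusted p = 0.0429), and Glrx5, an iron-sulfur cluster protein (−0.16, limma adjusted p = 0.0490), were lower in males, 2 of 14 against 5.38% of all genes.

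Of 40 other genes with a known role in red cells, 21 were in the tables, and they had a summed level of 442 to 459 FPKM in male KO, 439.9 to 467 in male WT, 444 to 469.6 in female KO and 437 to 453 in female WT. Slc4a1, Klf1, Gata1 and Ahsp, more erythroid-specific members of that list, were not among the 21, so they could not be analysed here. In females 2 of 21 fell and 0 rose, where 3.32% of all genes passed in either direction. Tfrc, the transferrin receptor that brings iron into cells, averaged 19.4 ± 2.37 FPKM in female KO and 24.6 ± 2.18 FPKM in female WT (log2 difference −0.33, limma adjusted p = 0.024). Tmod1, an actin-capping protein of the red cell membrane skeleton that neurons also make, averaged 7.79 ± 0.565 FPKM in female KO and 9.76 ± 1.02 FPKM in female WT (−0.29, limma adjusted p = 0.0172). In males 0 of 21 passed, and the median difference was 0.01 in males and 0.06 in females. For the mean KO effect Tfrc (−0.19, limma adjusted p = 0.0499) and Tmod1 (−0.20, limma adjusted p = 0.0172) fell, and Slc25a39, a mitochondrial glutathione carrier, rose by 0.23 (limma adjusted p = 0.0493), 3 of 21 against 3.22% of all genes. Between male and female KO libraries, Tfrc was higher in males (0.31, limma adjusted p = 0.0264) and Slc25a39 lower in males (−0.31, limma adjusted p = 0.0449), 2 of 21 against 5.38% of all genes. Tfrc and Tmod1 ran against the 5 blood genes across libraries, at r = −0.451 and −0.478 with their mean z-score, and Slc25a39 ran with them at 0.537.

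Genes that bind or clear free hemoglobin and heme did not pass in any of the 6 comparisons. In these comparisons 0.0455% to 5.38% of all genes passed, so the count is near the background. Of 13 on that list 9 were in the tables, and Hp, Hpx and Cd163, which take up hemoglobin or heme, were not among the 9. Hmox1, the inducible enzyme that breaks heme down, averaged 2.49 ± 0.174 FPKM in male KO, 2.27 ± 0.123 in male WT, 3.04 ± 0.398 in female KO and 2.65 ± 0.344 in female WT. Its female KO difference was 0.15 (limma adjusted p = 0.258). The heme transporters Slc48a1 and Flvcr2 had female KO differences of 0.14 and 0.03 (limma adjusted p = 0.0959 and 0.859). Over the 9 genes the median was 0.03 in females, and 5 of 9 were above 0. Ftl1, the ferritin light chain that stores iron and whose pseudogenes make its level uncertain, had the largest female KO difference of the list at 0.50 (limma adjusted p = 0.212), with 100.2 ± 17.6 FPKM in female KO and 72.2 ± 20.5 FPKM in female WT. The other heme-binding globins that were measured, Cygb (cytoglobin) and Ngb (neuroglobin), had female KO differences of 0.02 and −0.08 and male KO differences of −0.09 and −0.15, and neither passed (limma adjusted p = 0.609 to 0.866).

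Markers of vessels and membranes were set beside the blood genes, since blood is held in vessels. The 20 endothelial genes summed to 139 to 161 FPKM in male KO, 139 to 159 in male WT, 144 to 179 in female KO and 136 to 149 in female WT. The 12 pericyte and smooth muscle genes in the tables summed to 86.4 to 101 FPKM in male KO, 83.0 to 96.7 in male WT, 82.3 to 139.9 in female KO and 79.4 to 92.2 in female WT. The 14 meningeal fibroblast genes that were tested summed to 149 to 231 FPKM in male KO, 127 to 192 in male WT, 174 to 406 in female KO and 126 to 275 in female WT. None of these markers was at 0 in every library, and all 3 sums reached their highest value in a female KO library. In females, Mfsd2a, an endothelial carrier of lipids into the brain (0.54, limma adjusted p = 0.0139), Slc2a1, the glucose transporter of brain vessels (0.38, limma adjusted p = 0.0429), and Col1a1, a collagen of meningeal fibroblasts (0.54, limma adjusted p = 0.00512), rose in KO libraries. These were 2 of 20 endothelial and 1 of 14 meningeal genes tested, with 0 of 12 pericyte and smooth muscle genes, against 3.32% of all genes. The median female KO difference was 0.09 over the endothelial list (13 of 20 above 0), 0.21 over the pericyte and smooth muscle list (11 of 12), 0.41 over the meningeal list (12 of 14) and 0.59 over the choroid plexus list (10 of 10, none past the threshold), beside 0.01 over all genes. These 4 medians had the same sign as the globin differences in females, as did most other lists, among them ependymal (0.25, 11 of 12 above 0) and astrocyte genes (0.06). Medians below 0 were those of the oligodendrocyte (−0.16), platelet (−0.07), other globin (−0.03), neutrophil and lymphocyte (−0.02) and heme synthesis (−0.01) lists. The shared sign is thus not particular to vessels and membranes. Of the pericyte and smooth muscle list, Acta2, the smooth muscle actin, had a female KO difference of 0.74 (limma adjusted p = 0.086), Anpep 0.06 (limma adjusted p = 0.798) and Myh11, the smooth muscle myosin, 0.46 (limma adjusted p = 0.112). Between male KO and female KO libraries, Mfsd2a (−0.37, limma adjusted p = 0.0480), Cldn5, a tight junction protein (−0.35, limma adjusted p = 0.0334), and Col1a1 (−0.52, limma adjusted p = 0.00525) were lower in males. The collagen Col1a2 (−0.40, limma adjusted p = 0.0453) and the matrix protein Mgp (−0.70, limma adjusted p = 0.0346) were lower in males as well. Their part in the globin differences was not tested. White cells and platelets were scarcely measured: 2 of 26 neutrophil and lymphocyte genes and 2 of 12 platelet genes were in the tables, summing to 0.970 to 2.90 and 1.68 to 6.84 FPKM.

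The level of Hbb-bs was then correlated with 13 marker and pathway lists and with Ttr and Prl, 15 relations in all, and 0 passed after adjustment. Before adjustment 4 Pearson and 3 Spearman relations had a permutation p under 0.05. The mean endothelial level had r = 0.556 (permutation p = 0.0111) and rho = 0.571 (permutation p = 0.00965). The meningeal list had r = 0.533 (permutation p = 0.0154) and rho = 0.532 (permutation p = 0.0177), and the pericyte and smooth muscle list had r = 0.515 (permutation p = 0.0189) and rho = 0.454 (permutation p = 0.0464). Prl had r = 0.570 (permutation p = 0.00572) but rho = 0.311 (permutation p = 0.182). The adjusted permutation p was 0.0709 for all 4 Pearson values. Without the 2 libraries farthest from the median of Hbb-bs, these r were 0.404, 0.386, 0.277 and 0.103, and with group means subtracted 0.319, 0.188, 0.190 and 0.258. Leaving out single libraries changed these calls: all 4 passed without female KO replicate 1 (endothelial r = 0.696, permutation adjusted p = 0.0157) or without female KO replicate 5 (permutation adjusted p = 0.0478), and Prl alone passed without female WT replicate 5 (r = 0.617, permutation adjusted p = 0.0369). The relations therefore rest in part on differences between groups and on the libraries at the ends. Choroid plexus genes (r = 0.157), Ttr (0.175), heme synthesis (0.345), other red cell genes (0.279) and hippocampal neuron genes (−0.291) had no relation past an unadjusted permutation p of 0.05.

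**Figure D4:**
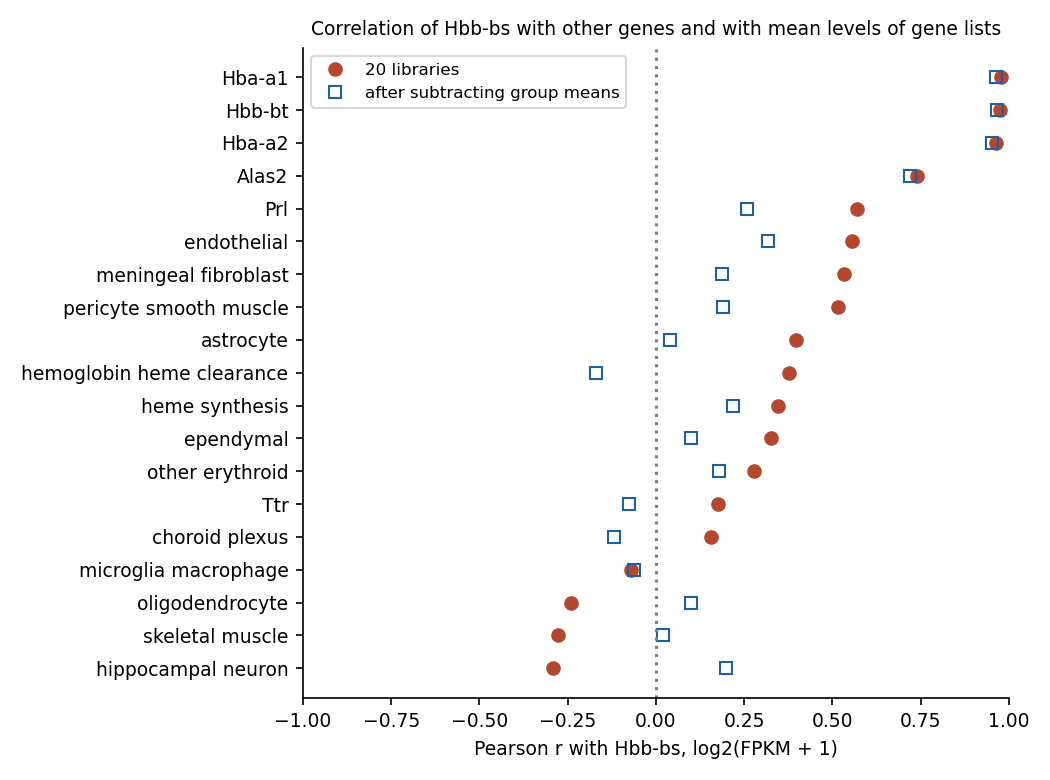
Pearson r of Hbb-bs (horizontal axis) with the other 4 genes, Ttr, Prl and the mean level of each gene list (rows) over 20 libraries, as deposited (filled circles) and with group means subtracted (open squares). The other 4 blood genes stand at 0.740 to 0.978 as deposited, and the highest list, endothelial genes, is at 0.556 and at 0.319 after subtraction.

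The blood genes were last used as a covariate, to see how many calls over all genes they moved with. The mean z-score of the 5 genes was −0.09 ± 0.74 in male KO, −0.44 ± 0.73 in male WT, 0.91 ± 0.75 in female KO and −0.38 ± 1.11 in female WT (SD, n = 5 each). With it in the limma fit, 48 genes passed for female KO against WT, of which 46 were among the 438 that passed without it. For male KO minus female KO, 189 passed and 186 of them were among the 709 without it. The 6 genes that passed for male KO against WT were the same 6. Because the z-score was itself highest in female KO, the covariate takes up part of any difference between that group and the others, and what blood content and genotype each contribute cannot be told apart in these libraries.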

How the data were processed

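Per the labels, total RNA of hippocampus was extracted with TRIzol and sequenced as mRNA libraries. The deposited values are FPKM per gene, 1 table per library, per the file headers. The tools listed are FastQC, HISAT2 and StringTie, and the build is mm10, per the submitters' processing notes, which give no versions. Which annotation release, trimming and strandedness were used is not given in the sources used here. FPKM hold no read numbers, and values as small as 2e-06 show no whole-read steps, so the depth is unknown and no counting interval was computed.

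Groups and replicate numbers came from the sample titles. Genes at 0.5 FPKM or more in at least 5 libraries were kept, which left 13174 of 13256. The limma-trend method (limma 3.58.1 in R 4.3.3) was applied to log2(FPKM + 1) with 1 mean per group over 20 libraries, Benjamini-Hochberg adjustment over all kept genes and a threshold of 0.05. Differences on this scale understate the change of low genes such as Alas2. The scripts were tested on simulated data. Correlations used two-sided permutation tests with 100000 resamples (scipy 1.17.1). Promoter sequences are from RefSeq (GRCm38.p6), matched by symbol for 5 of 5 genes, with the window length and motifs chosen after the sequences were seen, and transcript windows and GC content from GENCODE M21.

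All 5 genes are named. The rule for the lists was to name the genes past the threshold in any comparison or, where a list had none, the 3 with the highest r with the 5 genes, and to name the 10 nearest genes of the tables by r. A few others (Alas1, Fech, Hmox1, Ftl1, Cygb, Ngb and the defining red cell genes not analysed here) were named for their role after their values were seen. The rule was applied to the blood, vessel and meningeal lists only. The genes and lists were chosen with earlier results of these data known. Alternatives were the filter, the pseudocount, upper-quartile scaling, robust and weighted fits, the replicate block, a GC correction, covariates, separate fits, and leaving out libraries.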

Additional observations from a re-analysis of the deposited data

Results flagged for a closer look

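Of 20 sets of 5 libraries (5 genes in 4 groups), 2 had a library far from the other 4 by Dixon's test, which by chance marks about 1 set in 20. Both were in male KO. Hba-a1 was 152 FPKM in replicate 3, against 96.7 to 112 FPKM in the other male KO libraries, and the same library was the highest of its group for the other 4 genes. Alas2 was 1.20 FPKM in male KO replicate 5, against 1.58 to 1.64 FPKM in the others, and that library was also the lowest of its group for the 4 globin genes.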

How the results depend on the processing

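For the 5 genes in the 6 comparisons, 30 to 32 alternatives each were computed, and 1 value crossed the threshold: Hba-a1 in females without female WT replicate 3. Leaving out each library in turn gave 0 to 1 of the 5 genes past the threshold for female KO against WT. The female log2 difference ran from 0.38 to 0.65 for Hba-a1 (limma adjusted p = 0.0439 to 0.54), from 0.32 to 0.58 for Hbb-bs (limma adjusted p = 0.0706 to 0.603) and from 0.12 to 0.41 for Alas2 (limma adjusted p = 0.131 to 0.828). Male KO differences of Hba-a2 and Alas2 changed sign in 1 alternative each, at −0.01 and 0.00, as did Alas2 for male minus female KO in 1 and the differences between male and female WT libraries in 1 to 6, none past the threshold. Alas2 has no value under the filter of 2 FPKM. DESeq2 was not run, since there are no counts.

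Of the 15 relations of Hbb-bs, leaving out each library gave 0 to 4 past the threshold. There were 4 without female KO replicate 1 and 4 without female KO replicate 5 (endothelial, meningeal, pericyte and smooth muscle, and Prl), and 1 without female WT replicate 5 (Prl). All 10 pairs of the blood genes stayed past the threshold in each of 25 alternatives.

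The replicate numbers did not pair the libraries: deviations of same-numbered libraries correlated at −0.105 to 0.0651, and 2 of 20 correlated best with their own number. With the replicate block, 0 of the 5 genes passed in females (Hba-a1 0.52, limma adjusted p = 0.061), and 320 of all genes passed in place of 438. That count over all genes was 8 without the 3 libraries with high Prl, 78 without the 4 with high Ttr, 39 with both as covariates, 238 after the GC correction, and 120 with female libraries alone; leaving out 1 library gave 176 to 525. Over all alternatives the count was 3 to 12 for male KO against WT (6 as reported), 84 to 481 for the mean KO effect (424), 0 to 8 for the difference of KO effects (6), 8 to 20 for male against female WT (17) and 23 to 1023 for male against female KO (709).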
